A study of Mus musculus with 6 samples.

Results

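Interleukin-1 (IL-1) family cytokines and Toll-like receptors share a cytoplasmic signalling module that ends in the transcription factor NF-kB, and 37 genes of this module were followed in mouse lung cancer cells with and without knockdown of Pik3ca. The list holds ligands, receptors and co-receptors, adaptors and kinases, NF-kB subunits, their inhibitors, and 3 target genes. Members were taken as probe sets whose platform annotation gives exactly 1 gene symbol on the list, which gave 67 probe sets for 34 of the 37 genes, among 18193 genes tested in all. Il1rl1, Irak4 and Nfkb1 were not analysed here. The cells were 344SQ, a murine line from metastatic lung adenocarcinoma. The series has 2 groups of 3 arrays each: 344SQ cells transfected with a vector for an shRNA (short hairpin RNA) against mouse PIK3CA, and 344SQ cells with a control shRNA. Both groups carry a hairpin, and the labels do not say whether the cells of a group were a pool or a clone. Pik3ca encodes a catalytic subunit of phosphoinositide 3-kinase, an enzyme downstream of growth factor receptors.

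A ligand of the IL-1 family binds its primary receptor and an accessory protein, and the paired intracellular domains recruit the adaptor MyD88 and IRAK kinases. Toll-like receptors, which sense microbial products, use the same adaptor, and lipopolysaccharide reaches TLR4 by way of the carrier LBP and the co-receptor CD14. Both routes activate the ubiquitin ligase TRAF6 and release NF-kB from its inhibitors. In epithelium IL-33 acts as an alarm cytokine stored in the nucleus, and SIGIRR (single immunoglobulin and TIR domain-containing receptor) dampens IL-1 and Toll-like receptor signalling.

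Intensities are the deposited values on a linear scale. A change is the mean log2(intensity + 16) of PIK3CA shRNA arrays less that of control shRNA arrays, so changes of dim genes are understated. A gene is represented by its brightest probe set unless another is named. Adjusted p-values come from limma (a moderated linear model across all genes) with Benjamini-Hochberg adjustment, with a threshold of 0.05. Values with ± are means and SDs over 3 arrays. Nothing in the labels calls the replicates separate cultures. The p-values then reflect only the scatter among these 6 samples, which may be technical. An exact permutation test of 3 arrays against 3 cannot give a p below 0.1, which is reached when the groups do not overlap.

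Of the 34 measured members, 7 rose and 1 fell in PIK3CA shRNA cells. The rises were in Il33, Il1r1, Lbp, Tnfaip2, Cd14, Irak2 and Nfkbiz, and the fall was in Sigirr. Over all 18193 genes 11.5% were called, 5.88% as higher and 5.62% as lower, against 8 of the 34 members (23.5%). The members were chosen with earlier results of these data known, so their share is not independent of these data. Sigirr, Cd14 and Tnfaip2, all among the 8, had marked the set in the series. The 2 groups of arrays did not overlap in 16 of the 34 members (47.1%), against 33.1% of all genes. An unadjusted p under 0.05 was found in 12 of the 34 members and in 4706 of all 18193 genes. The median change of the members was 0.07 on the log2 scale, against -0.01 over all genes, and the median size of the change regardless of sign was 0.19 against 0.17. Without PIK3CA shRNA replicate 1 or without control shRNA replicate 3, 4 members rose in place of 7.

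**Figure D1:**
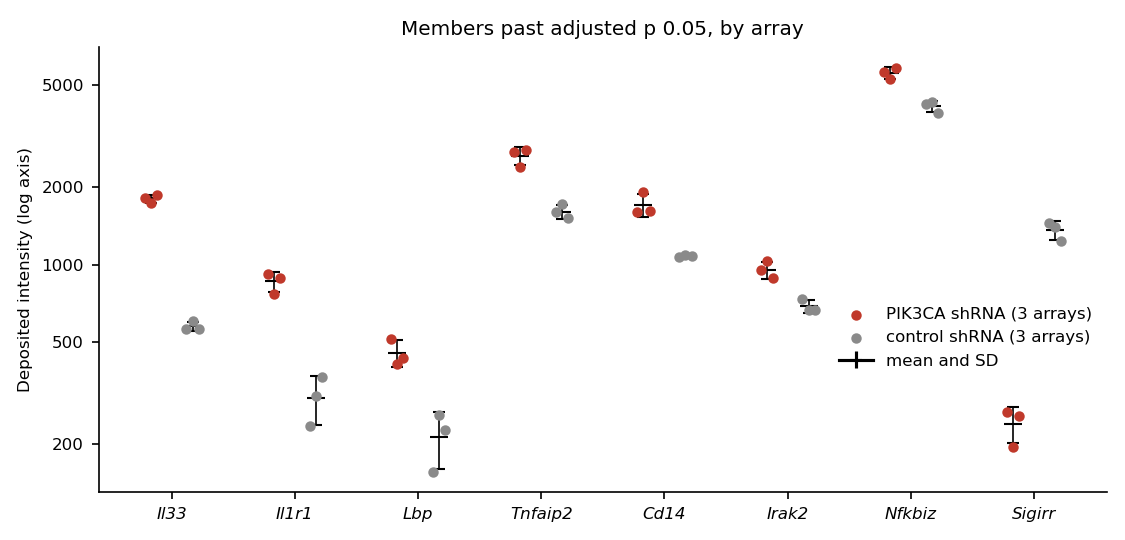
Deposited intensity on a log axis for the 8 members past adjusted p 0.05, with PIK3CA shRNA arrays in red to the left of control shRNA arrays in grey, and the mean and SD of each 3 arrays in black. In each gene the 2 groups are apart, and Sigirr is the only one of the 8 that is lower in PIK3CA shRNA cells.

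**Figure D2:**
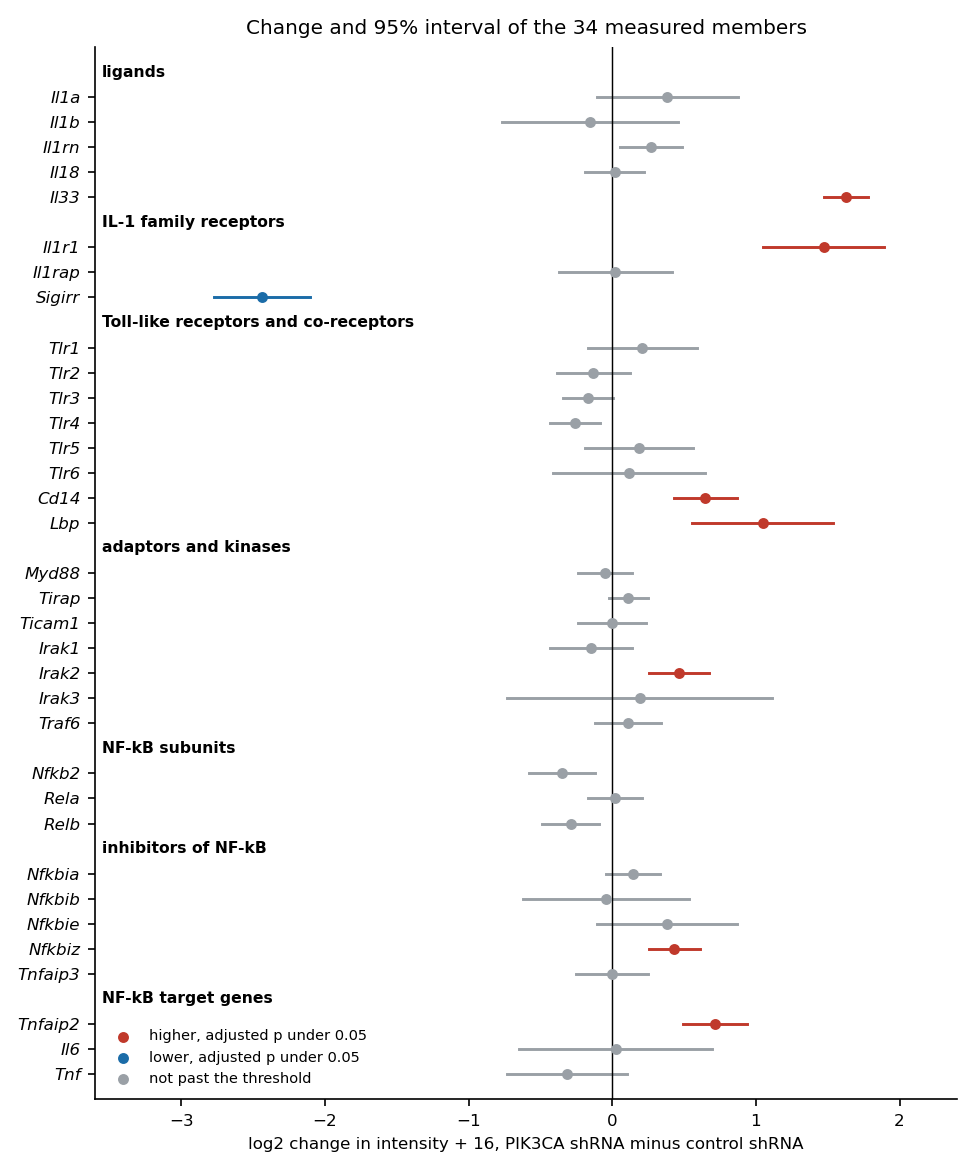
Log2 change with its 95% interval for the 34 measured members, ordered by role, for PIK3CA shRNA minus control shRNA. Red marks members that rose, blue the 1 that fell and grey those not past the threshold. Myd88, Ticam1, Rela and Tnfaip3 lie close to 0. Among the grey members, the intervals of Nfkb2, Relb and Tlr4 lie below 0 and that of Il1rn lies above it.

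The start regions of members that rose are set beside those of Nfkbia and Nfkb2, textbook targets of NF-kB that did not pass the test, so that the sequence next to the transcription start can be compared with the change. Each window runs 5′ to 3′ from 250 bases before to 50 bases after a start in RefSeq (build GRCm38.p6), and capitals mark matches of either strand to the NF-kB consensus motif of 10 bases, where overlapping matches run together.
Il33 (chr19:29924863-29925162, plus strand): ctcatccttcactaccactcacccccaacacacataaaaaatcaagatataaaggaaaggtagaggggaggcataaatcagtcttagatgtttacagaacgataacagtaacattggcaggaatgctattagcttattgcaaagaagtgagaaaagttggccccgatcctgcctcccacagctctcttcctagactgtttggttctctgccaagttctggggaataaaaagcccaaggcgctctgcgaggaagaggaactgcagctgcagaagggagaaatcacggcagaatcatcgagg
Il1r1 (chr1:40266336-40266635, plus strand): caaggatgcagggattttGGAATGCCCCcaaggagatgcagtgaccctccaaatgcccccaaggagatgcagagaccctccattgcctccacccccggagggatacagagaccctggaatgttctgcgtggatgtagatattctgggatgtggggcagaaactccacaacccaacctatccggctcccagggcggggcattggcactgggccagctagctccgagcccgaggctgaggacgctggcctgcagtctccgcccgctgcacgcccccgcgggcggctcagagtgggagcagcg
Irak2 (chr6:113638217-113638516, plus strand): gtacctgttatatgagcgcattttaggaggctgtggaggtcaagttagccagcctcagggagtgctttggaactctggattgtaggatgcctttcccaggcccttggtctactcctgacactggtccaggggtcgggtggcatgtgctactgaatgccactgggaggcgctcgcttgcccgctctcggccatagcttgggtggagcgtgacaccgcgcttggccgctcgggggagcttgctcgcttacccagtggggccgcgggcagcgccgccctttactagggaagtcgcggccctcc
Tnfaip2 (chr12:111442411-111442710, plus strand): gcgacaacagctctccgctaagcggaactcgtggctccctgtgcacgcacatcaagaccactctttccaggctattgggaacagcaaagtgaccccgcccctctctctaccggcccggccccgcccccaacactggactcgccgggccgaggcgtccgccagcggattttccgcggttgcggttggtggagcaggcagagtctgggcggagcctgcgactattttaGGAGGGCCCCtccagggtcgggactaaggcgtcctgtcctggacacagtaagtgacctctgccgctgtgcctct
Nfkbia (chr12:55492598-55492897, minus strand): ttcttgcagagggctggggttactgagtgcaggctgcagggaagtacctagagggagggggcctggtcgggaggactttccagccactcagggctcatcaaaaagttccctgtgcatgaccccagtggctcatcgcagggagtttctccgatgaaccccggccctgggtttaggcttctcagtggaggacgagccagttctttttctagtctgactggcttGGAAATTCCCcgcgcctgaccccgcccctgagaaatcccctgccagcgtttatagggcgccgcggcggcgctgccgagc
Nfkb2 (chr19:46304487-46304786, plus strand): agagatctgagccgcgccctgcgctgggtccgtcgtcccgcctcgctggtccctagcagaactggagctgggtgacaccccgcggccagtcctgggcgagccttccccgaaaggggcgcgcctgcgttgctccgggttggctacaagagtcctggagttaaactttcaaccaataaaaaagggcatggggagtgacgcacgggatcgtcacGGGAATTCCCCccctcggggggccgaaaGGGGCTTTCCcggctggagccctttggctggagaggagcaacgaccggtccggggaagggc

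A match lay in the windows of Tnfaip2, beginning 24 bases before the start, and of Il1r1 at the second of its 2 listed starts, beginning 232 bases before it. Neither of the 2 Il33 windows nor the Irak2 window held one. Nfkbia had a match beginning 29 bases before its start, and the Nfkb2 window shown had matches beginning 39, 38 and 11 bases before the start. Of the 34 measured members, 28 had an entry, and Sigirr, Tlr4, Cd14, Lbp, Relb and Nfkbiz are not among them. At least 1 window held a match in 10 of the 28 members (35.7%), against 11.7% of 14452 tested genes with an entry and 8.46% of all 32851 windows. The list was chosen as genes of the NF-kB pathway and holds textbook targets such as Nfkbia and Nfkb2. The share of members with a match is therefore not independent of that choice. By outcome, 2 of the 4 members that rose and had an entry held a match, as did 8 of the 24 that were not called. A match describes the letters only.

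Among the ligands, Il33 rose and the other 4 measured genes did not pass the test. Il33 (probe set 1416200_at), the alarm cytokine, read 1816, 1746 and 1874 in PIK3CA shRNA cells, against 561, 601 and 563 in control shRNA cells. The groups lay far apart and the arrays within each were close together, with means of 1812 ± 64.4 in PIK3CA shRNA cells and 575 ± 22.5 in control shRNA cells, a ratio of 3.15. The change was 1.63 ± 0.06 (SE; limma adjusted p = 0.000183), with a 95% interval of 1.47 to 1.78.

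The classical IL-1 ligand genes were dim. Il1a, which encodes the cell-bound and nuclear form of IL-1, read 64.4, 76.5 and 68.3 in PIK3CA shRNA cells, against 32.9, 55.9 and 64.3 in control shRNA cells. The groups barely separated, and the change of 0.38 (95% interval -0.11 to 0.87) did not pass (limma adjusted p = 0.298). Il1b, the secreted form made mostly by myeloid cells, averaged 119.5 ± 41.3 in PIK3CA shRNA cells and 130.3 ± 15.0 in control shRNA cells, with overlapping arrays. Il1rn, the receptor antagonist that blocks IL-1 binding, read 553, 525 and 457 in PIK3CA shRNA cells, against 424, 409 and 427 in control shRNA cells. Its arrays did not overlap, yet the change of 0.27 did not pass (limma adjusted p = 0.115), and its other 2 probe sets read -0.09 and 0.13 with overlapping arrays. Il18, a cytokine cut to its active form by the inflammasome, averaged 275 ± 7.13 in PIK3CA shRNA cells and 272 ± 25.5 in control shRNA cells, and its change of 0.02 had an interval of -0.19 to 0.22.

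Of the 3 measured IL-1 family receptor genes 1 rose and 1 fell. Sigirr (probe set 1449163_at), the inhibitory receptor, read 267, 195 and 257 in PIK3CA shRNA cells, against 1448, 1403 and 1234 in control shRNA cells. Every PIK3CA shRNA array was below every control array by a wide margin, and the PIK3CA shRNA mean was 17.6% of the control mean. The change was -2.44 ± 0.13 (SE; limma adjusted p = 0.000675), with a 95% interval of -2.77 to -2.10. Sigirr has 1 probe set on the array, so no second reading of the transcript was available, and with any 1 array left out the change ran from -2.52 to -2.31.

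Il1r1 (probe set 1448950_at), the signalling receptor for IL-1, read 921, 769 and 890 in PIK3CA shRNA cells, against 236, 308 and 366 in control shRNA cells. The groups did not overlap, at means of 860 ± 80.4 in PIK3CA shRNA cells and 303 ± 65.3 in control shRNA cells. The ratio of means was 2.84 and the change 1.47 ± 0.17 (SE; limma adjusted p = 0.00707). A further Il1r1 probe set, 1459777_at, read below 16 on all 6 arrays and carried no usable signal. Il1rap, the accessory protein that IL-1 and IL-33 receptors need to signal, averaged 138.5 ± 27.3 in PIK3CA shRNA cells and 135.3 ± 17.8 in control shRNA cells. Its change of 0.02 had an interval of -0.37 to 0.42, and all 5 of its probe sets had overlapping arrays.

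The carrier and the co-receptor of lipopolysaccharide rose, whereas of the 6 Toll-like receptor genes 0 passed by limma, 1 of them (Tlr4) at an unadjusted p under 0.05. Cd14 (probe set 1417268_at), the membrane co-receptor that hands lipopolysaccharide to TLR4, read 1600, 1922 and 1614 in PIK3CA shRNA cells, against 1076, 1090 and 1081 in control shRNA cells. The control arrays were nearly equal and all lay below the PIK3CA shRNA arrays. The means were 1712 ± 182 in PIK3CA shRNA cells and 1082 ± 7.20 in control shRNA cells, a ratio of 1.58, and the change was 0.65 ± 0.09 (SE; limma adjusted p = 0.0114). Lbp (probe set 1448550_at), the serum carrier known mainly as a liver acute-phase protein, read 514, 410 and 433 in PIK3CA shRNA cells, against 155, 260 and 226 in control shRNA cells. The groups did not overlap and the ratio of means was 2.11, with a change of 1.05 ± 0.20 (SE; limma adjusted p = 0.0287). Its call was lost without control shRNA replicate 3 (adjusted p = 0.0765) and without PIK3CA shRNA replicate 1, 2 or 3 (0.0928, 0.0688 and 0.0859). A second, dim Lbp probe set averaged 44.9 ± 21.3 in PIK3CA shRNA cells and 46.3 ± 14.5 in control shRNA cells, and the mean of both probe sets had a difference of 0.49, which did not pass (adjusted p = 0.282).

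Cd14 is also a monocyte marker, so leukocyte markers were read beside it. Of 21 measured leukocyte markers 2 rose and 0 fell (9.52%, against the 11.5% of all genes): Fcgr3, an Fc receptor gene, by 1.47 and Mrc1, the mannose receptor gene, by 0.60. The summed intensity of the 21 genes was 3730 to 4179 in PIK3CA shRNA cells, against 3269 to 3394 in control shRNA cells. Without the 2 called genes the sum was 1677 to 2132 in PIK3CA shRNA cells, against 1911 to 2255 in control shRNA cells. The list's median change was -0.12, and 14 of the 21 were negative. Ptprc, the pan-leukocyte antigen gene, averaged 58.6 in PIK3CA shRNA cells and 63.1 in control shRNA cells, and Spi1, the myeloid master factor gene, averaged 128 in PIK3CA shRNA cells and 143 in control shRNA cells. No marker of this list read 0, there are no detection calls, and the part of these markers in the Cd14 result was not tested. In bulk RNA, fewer cells of a type and less RNA per cell cannot be told apart. The epithelial markers had 0 of 10 past the threshold by limma and 3 with an unadjusted p under 0.05. Over all genes 4706 of 18193 had such a p. The summed intensity of the epithelial markers was 60350 to 61411 in PIK3CA shRNA cells, against 59963 to 63070 in control shRNA cells. Of 11 fibroblast markers 1 fell (9.09%, against the 11.5% of all genes) and 0 rose. The 1 that fell was Dcn, which encodes the matrix protein decorin. Its probe set was dim, at 37.6 in PIK3CA shRNA cells and 74.1 in control shRNA cells. A second Dcn probe set, below 16 on all 6 arrays, read 0.09 with no overlap.

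Tlr4, the lipopolysaccharide receptor, gave opposite readings from 2 probe sets of similar brightness. By the brighter it read 424, 437 and 431 in PIK3CA shRNA cells, against 531, 545 and 478 in control shRNA cells. By the other it averaged 472 ± 16.3 in PIK3CA shRNA cells and 396 ± 51.6 in control shRNA cells. In neither did the arrays overlap (exact two-sided permutation p = 0.1 for each), so the changes of -0.26 and 0.25 give the gene no direction. The first had a limma adjusted p of 0.0777. Tlr3, the receptor for double-stranded RNA, averaged 188 ± 3.97 in PIK3CA shRNA cells and 214 ± 15.2 in control shRNA cells, with a change of -0.17 that did not pass. A second Tlr3 probe set read -0.02 with overlapping arrays. Tlr2, which pairs with TLR1 or TLR6 to sense lipoproteins, had a difference of -0.13 (interval -0.39 to 0.12), and Tlr1 and Tlr6 of 0.21 and 0.11. The flagellin receptor gene Tlr5 had a difference of 0.19 (interval -0.19 to 0.57). All 4 had overlapping arrays.

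Between receptor and NF-kB, Irak2 was the only 1 of 7 measured adaptor and kinase genes past the threshold. Irak2 (probe set 1436507_at), a kinase-family protein that sustains signalling to TRAF6, read 950, 1032 and 886 in PIK3CA shRNA cells, against 735, 664 and 664 in control shRNA cells. The groups did not overlap, and the ratio of means was 1.39, with a change of 0.46 ± 0.08 (SE; limma adjusted p = 0.0253). The call was lost without PIK3CA shRNA replicate 1 or 2 (adjusted p = 0.0835 and 0.0655) and without control shRNA replicate 1, 2 or 3 (0.0528, 0.0880 and 0.0845).

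The other 6 adaptor and kinase genes did not pass the test. Myd88, the adaptor shared by IL-1 and most Toll-like receptors, averaged 597 ± 36.2 in PIK3CA shRNA cells and 617 ± 32.5 in control shRNA cells, and its change of -0.05 had an interval of -0.24 to 0.14. Ticam1, the adaptor of TLR3 and TLR4 that leads to interferon, averaged 175 ± 18.7 in PIK3CA shRNA cells and 174 ± 10.7 in control shRNA cells, with an interval of -0.24 to 0.24. Tirap, which bridges TLR2 and TLR4 to MyD88, was above control on every array by both of its probe sets, at 0.11 and 0.21, and neither passed. Irak1, the kinase that docks on MyD88 complexes, had a difference of -0.15 (interval -0.43 to 0.14), and its 4 probe sets ran from -0.21 to 0.02. Irak3, a brake on IRAK signalling found mainly in myeloid cells, was dim, at 61.5, 52.9 and 35.6 in PIK3CA shRNA cells and 16.8, 57.4 and 60.6 in control shRNA cells. Its other probe set averaged 24.3 ± 11.2 in PIK3CA shRNA cells and 9.76 ± 1.58 in control shRNA cells, with no overlap and a difference of 0.61 that did not pass (adjusted p = 0.208 over probe sets). Traf6 had a difference of 0.11 (interval -0.12 to 0.34), and its 5 probe sets ran from -0.53 to 0.49, all with overlapping arrays.

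Of the 3 measured NF-kB subunit genes 0 passed by limma, 2 had an unadjusted p under 0.05, and 2 of them read below control on every array. Nfkb2, whose precursor is processed in the non-canonical pathway, read 478, 476 and 488 in PIK3CA shRNA cells, against 559, 600 and 697 in control shRNA cells. Relb, its partner in that pathway, read 288, 271 and 248 in PIK3CA shRNA cells, against 347, 314 and 336 in control shRNA cells. The groups did not overlap in either gene. Nfkb2 had a difference of -0.35 (limma adjusted p = 0.0746), a second Nfkb2 probe set read -0.41, and Relb had one of -0.29 (adjusted p = 0.0789). With dim genes left out of the test both passed, as did Tlr4, at adjusted p of 0.0439 for Nfkb2, 0.0462 for Relb and 0.0445 for Tlr4. Rela, the main transactivating subunit of the canonical pathway, averaged 3235 ± 173 in PIK3CA shRNA cells and 3186 ± 187 in control shRNA cells, and its change of 0.02 had an interval of -0.17 to 0.21.

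Of the 5 genes grouped as inhibitors of NF-kB, 1 rose. Nfkbiz (probe set 1417483_at), an atypical nuclear member of the inhibitor family that also helps to induce secondary response genes, read 5664, 5289 and 5851 in PIK3CA shRNA cells, against 4248, 4300 and 3898 in control shRNA cells. All 3 of its probe sets were above control with no overlap, at 0.43, 0.59 and 0.45. The first, at a ratio of means of 1.35 and a standard error of 0.07, had a limma adjusted p of 0.0199. Its call was lost when any array other than PIK3CA shRNA replicate 2 was left out, with an adjusted p of at most 0.0745.

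Nfkbia, the classical inhibitor and itself an NF-kB target, read 4730, 4537 and 4615 in PIK3CA shRNA cells, against 3904, 4115 and 4537 in control shRNA cells. Its lowest PIK3CA shRNA array was level with its highest control array, and the change of 0.15 (interval -0.04 to 0.33) did not pass (limma adjusted p = 0.296). Of the other 4 Nfkbia probe sets, 1420088_at, 1448306_at and 1449731_s_at read 0.12, 0.19 and 0.16 with no overlap. The dimmest, 1420089_at, read -0.11 with overlapping arrays, and none of the 4 passed. Tnfaip3, the deubiquitinating enzyme that ends NF-kB signalling, averaged 2239 ± 247 in PIK3CA shRNA cells and 2233 ± 113 in control shRNA cells, with an interval of -0.25 to 0.25. Nfkbie, another cytoplasmic inhibitor, had a difference of 0.38 (interval -0.10 to 0.87), with overlapping arrays. Its second probe set, dimmer, read 0.45 with no overlap (adjusted p = 0.0758 over probe sets). Nfkbib, of the same family, had a difference of -0.04 by its bright probe set, and a dim one averaged 54.3 ± 4.35 in PIK3CA shRNA cells and 89.8 ± 14.2 in control shRNA cells, a change of -0.58 (adjusted p = 0.0611 over probe sets).

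Of the 3 target genes in the set, Tnfaip2 rose and the cytokine genes Il6 and Tnf read close to the bottom of the scale. Tnfaip2 (probe set 1438855_x_at), induced by TNF and linked to membrane nanotube formation, read 2761, 2406 and 2812 in PIK3CA shRNA cells, against 1599, 1722 and 1515 in control shRNA cells. The groups did not overlap, at a ratio of means of 1.65 and a change of 0.715 ± 0.09 (SE; limma adjusted p = 0.00891). The suffix of this probe set marks possible matches to other transcripts. A second probe set without that mark read 0.70 with no overlap (adjusted p = 0.0703 over probe sets), a further, dim one read 0.00, and the mean of the 3 had a difference of 0.47 (adjusted p = 0.0932). Il6 read 28.5, 29.8 and 9.47 in PIK3CA shRNA cells, against 28.8, 15.3 and 19.3 in control shRNA cells, and Tnf averaged 22.3 ± 5.88 in PIK3CA shRNA cells and 31.6 ± 7.77 in control shRNA cells. Both genes had overlapping arrays near the added constant of 16, so a change could not be told at this brightness.

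**Figure D3:**
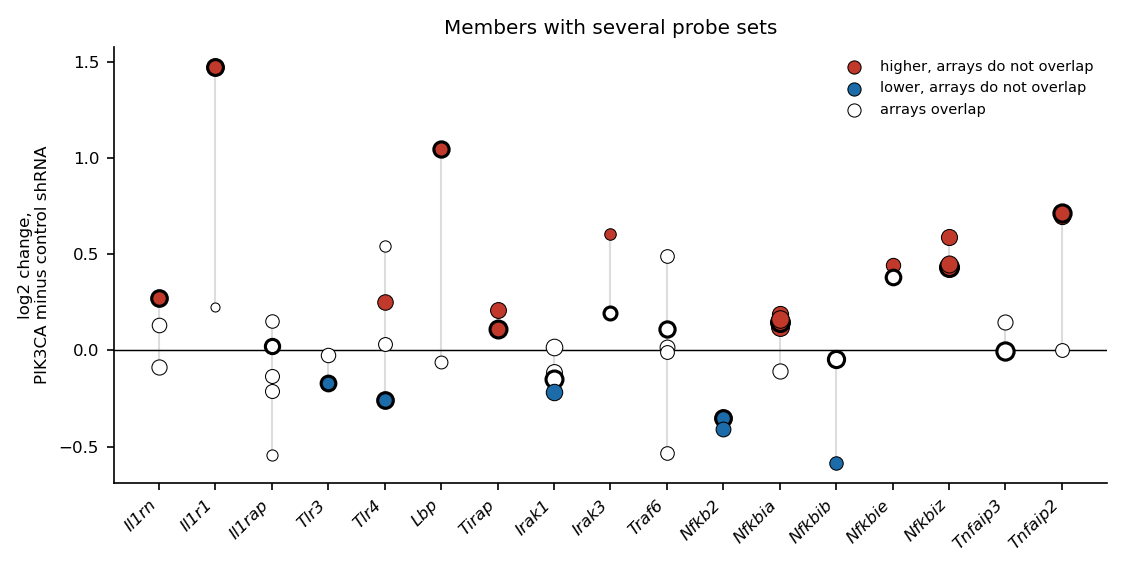
Log2 change, PIK3CA shRNA minus control shRNA, of each probe set of the 17 members that have more than 1. Filled points mark probe sets whose arrays do not overlap between groups (red higher, blue lower), point size grows with mean intensity and a thick outline marks the brightest; Nfkbiz and Nfkb2 agree across probe sets, while the 4 of Tlr4 lie on both sides of 0.

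Over all 67 member probe sets, 8 (11.9%) were called when every probe set was tested, 7 higher and 1 lower, against 4.94% of 45037 probe sets. The 2 shares cover unlike sets. Every member probe set has 1 symbol, whereas the 45037 include 932 with several symbols and 9160 with none listed. The share among the 34945 with 1 symbol is not given here. The 11.9% also has the same limit as the share over genes, since the members were chosen with earlier results of these data known. Nfkbiz was the only member with 2 called probe sets, and Irak2 was not called in this test (adjusted p = 0.0501). Of the 8 members called in the test over genes, Il33, Sigirr, Cd14 and Irak2 have 1 probe set each, so their calls rest on a single reading per array.

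Other genes of the pathway were counted in 4 lists of 116 measured genes, none of them members. In these, 13 rose and 4 fell, so 14.7% were called, against the 11.5% of all genes given above. The lists, too, were chosen with earlier results of these data known. NF-kB target genes had 9 of 38 higher and 2 lower, with a median change of 0.10. Cxcl5, a neutrophil-attracting chemokine, averaged 483 ± 68.9 in PIK3CA shRNA cells and 15.8 ± 1.96 in control shRNA cells (change 3.96). Cfb, complement factor B, averaged 224 ± 10.5 in PIK3CA shRNA cells and 29.9 ± 3.47 in control shRNA cells (change 2.39). The chemokine genes Cxcl3 (1.47) and Cxcl1 (0.49) and the tissue factor gene F3 (0.49) rose as well, and all 3 Cxcl1 probe sets were called. Cxcl3 was dim, at 82.3 in PIK3CA shRNA cells and 19.7 in control shRNA cells, the latter near the added constant of 16. Other targets in regular use as NF-kB readouts did not pass: Sod2, the mitochondrial superoxide dismutase gene, had a difference of 0.02, Birc3 of 0.06, Ptgs2 of 0.11 and Ccl2 of -0.20. Csf2 (1.25) and Cxcl2 (0.49), with no overlap, and Csf3 (1.08), with overlapping arrays, did not pass either. The 2 targets that fell were Icam1 (-0.45), an adhesion molecule gene, and Mmp3 (-0.48), a metalloproteinase gene. The further targets that rose were Vcam1 (0.52), Plau (0.77), Lcn2 (0.89) and Ptges (0.29). Lcn2 was dim as well, at 50.4 in PIK3CA shRNA cells and 20.5 in control shRNA cells, so its change is less certain. Any other probe sets of the targets beyond the first 5 are not given here. Of the 38 targets 26 had a positive change and 12 a negative one. Targets named beyond the first 5 were chosen after their values were seen.

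Among other adaptors, kinases and ubiquitin enzymes 2 of 29 rose and 1 fell. Ikbke, an IkB kinase-related kinase, averaged 197 ± 64.4 in PIK3CA shRNA cells and 50.5 ± 22.1 in control shRNA cells, a change of 1.69. Rbck1, a subunit of the linear ubiquitin ligase complex, rose by 0.55, and Peli2, a ubiquitin ligase that acts on IRAK proteins, fell by 0.67 on the log2 scale. Of 24 other NF-kB and inhibitor proteins 2 rose and 1 fell. Cyld, a deubiquitinating enzyme that restrains NF-kB, averaged 1623 ± 17.6 in PIK3CA shRNA cells and 2151 ± 29.0 in control shRNA cells, and another of its 4 probe sets was also called lower. The adaptor gene Dok1 (0.35) and the ubiquitin ligase gene Itch (0.40) rose. When every probe set was tested, Dok1, Itch and Ikbke were not called (limma adjusted p = 0.0522, 0.0793 and 0.0519). The other Itch probe sets read 0.20, 0.01 and -0.11 with overlapping arrays. Of 25 other receptors, ligands and co-receptors 0 passed by limma, and 6 had an unadjusted p under 0.05, against 4706 of all 18193 genes.

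**Figure D4:**
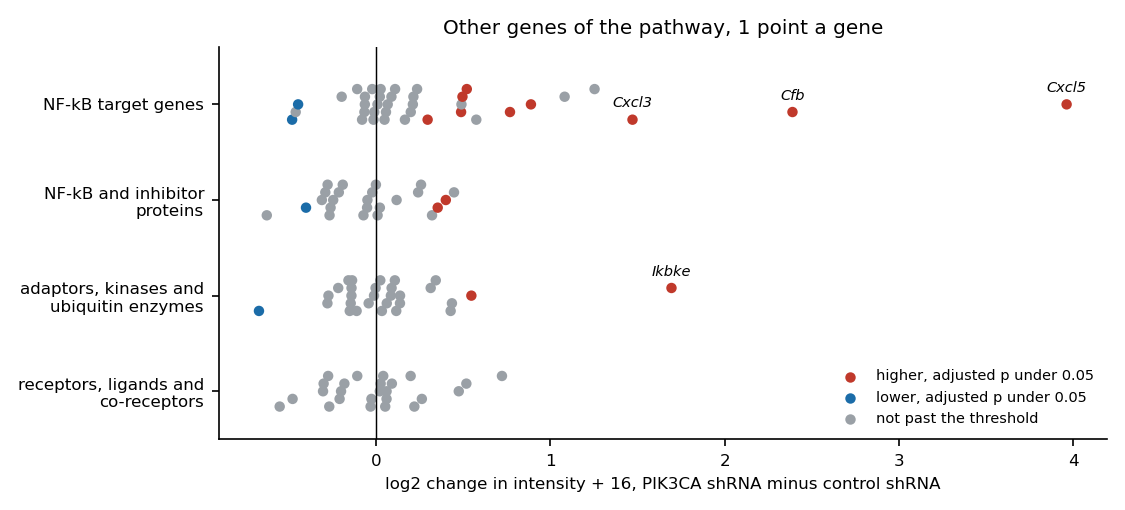
Log2 change, PIK3CA shRNA minus control shRNA, of the 116 other genes of the pathway in 4 lists, 1 point a gene, with genes past adjusted p 0.05 in red (higher) or blue (lower). The named points rose by more than 1; the list of receptors, ligands and co-receptors has no coloured point.

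Pik3ca itself, which checks the labels, averaged 1236 ± 13.1 in PIK3CA shRNA cells and 2379 ± 66.3 in control shRNA cells by its brightest probe set, a change of -0.94. Array medians lay between 134.1 and 134.7, and Pearson's r across probe sets was 0.982 to 0.984 within groups and 0.974 to 0.977 between them, where probe sets are not independent replicates.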

How the data were processed

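RNA from 344SQ cells was read on Affymetrix mouse arrays, 3 with PIK3CA shRNA and 3 with control shRNA, per the labels' protocols following Affymetrix for extraction and biotin labelling. The deposited values are linear intensities per probe set, with the same minimum and maximum on all 6 arrays; which software and normalization the authors used is not given here. Of the values 15.0% were below 16, and the table holds no detection calls. With 3 arrays a group, their number limits precision.

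Each array was brought to the same median before 16 was added and log2 taken. The 64 control probe sets were left out. Probe sets were named by the platform annotation: 34945 had 1 symbol, 932 several and 9160 none listed. All 34 measured members matched RefSeq by gene identifier, and 0 symbols changed. A gene was represented by its probe set of highest mean over the 6 arrays. Tests used limma (version 3.58.1, R version 4.3.3; two-sided, 95% intervals, Benjamini-Hochberg over 18193 genes, or over 45037 probe sets where said). The steps were tested on simulated data.

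The members and lists were chosen with earlier results of these data known. All members and Pik3ca are named; from each other list, up to 5 called genes with the smallest adjusted p. Ptprc, Spi1, Sod2, Birc3, Ptgs2, Ccl2, Csf2, Cxcl2, Csf3, Icam1, Mmp3, Vcam1, Plau, Lcn2 and Ptges fall outside this rule. They were chosen after their values were seen. The labels do not say whether the replicate numbers pair the samples, and no block was used in the main test. With a replicate block 413 genes and 1 higher member were called, in place of 2093 and 7. Alternatives covered a replicate block, quantile and upper-quartile scaling, a filter on the dimmest 25% of genes, other probe set rules, weighted arrays, a robust prior with an intensity trend, adding 1 or 64 in place of 16, a threshold of 0.01, and each array left out. Figures were drawn with matplotlib 3.10.9.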

Additional observations from a re-analysis of the deposited data

How the results depend on the processing

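Sigirr and Il33 kept their direction and their call under all 17 alternatives, and Il1r1 under all but the replicate block. The deposited arrays already shared minimum and maximum, with medians of 134.1 to 134.7, so quantile and upper-quartile scaling could change little. They called 2075 and 2097 genes. Counts were within 1.5 times the reported 7 higher and 1 lower members, except as follows. With the replicate block 413 genes, 1 higher member and 2 member probe sets were called, against 2093, 7 and 8 without it. The labels give no meaning to the numbers. Deviations from the group means had r from -0.02 to 0.05 for same-numbered arrays of the 2 groups. For arrays of different numbers r ran from -0.05 to 0.07. At adjusted p 0.01 there were 636 genes, 3 higher members and 2 member probe sets. With an intensity trend and robust prior 3192 genes and 2 lower members were called (Nfkb2 joined Sigirr). Dropping dim genes gave 4 lower members (Nfkb2, Relb and Tlr4 joined Sigirr). Leaving out 1 array gave 945 to 1138 genes, 4 to 5 higher members and 2 to 6 member probe sets. With the mean of probe sets 5 members were higher, since Lbp and Tnfaip2 lost their calls. No member called in the main test changed sign. Among members called in neither the main fit nor the alternative, 13 changed sign in 33 of the 574 values. Tlr4 is among these 13. It was called lower when dim genes were dropped (-0.26, limma adjusted p = 0.0445). Its change was 0.14 for the mean of its probe sets and 0.54 under the other probe set rule, neither past the threshold. The call of Tlr4 therefore gives the gene no direction. The cause of these shifts was not tested, apart from the smaller number of arrays or genes by construction. The brightness of Il6 and Tnf limits what can be said of them.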

Other observations

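Over all genes 11.5% were called, and 4706 of 18193 had an unadjusted p under 0.05, so neighbour counts are to be read against these shares. In the 5 tested genes on each side of Sigirr 0 of 10 were called by limma and 2 had an unadjusted p under 0.05. The median change of these 10 was 0.08. Around Il1r1 0 of 10 were called by limma and 4 had an unadjusted p under 0.05, with a median of -0.01. The neighbours of Il1r1 include the related receptor genes Il1r2 (0.02), Il1rl2 (0.72), Il18r1 (0.47) and Il18rap (-0.30), none past the threshold. Around Tnfaip2, 1 of 10 neighbours was called, Exoc3l4, which rose by 1.81. Around Il33, 1 of 10 was called, Ermp1, which rose by 0.63. Around Lbp, 1 of 10 was called, Tti1, which rose by 0.45, while 6 of the 10 had an unadjusted p under 0.05 and their median change was 0.27. Around Irak2, Ghrl rose by 0.56, and around Nfkbiz, Alcam rose by 0.65 and Dubr fell by 0.59. Around Cd14, Ankhd1 fell by 0.34. These neighbours were named after their values were seen.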
